A study of Mus musculus with 23 samples.

Results

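The libraries described here show which genes differ in cultured mouse astrocytes after 24 h of T3 (triiodothyronine, the active form of thyroid hormone). They are 7 of the 23 RNA libraries of the series, chosen by their titles: 3 from cultures given T3 and 4 from control cultures. All were primary cultures of astrocytes, the star-shaped glia of the brain, from the whole neocortex of mice at postnatal day 3 of a hybrid background, in which BALB/c+C57BL/6 was joined with 129/OLa+129/Sv+. The cells grew for 7 days, then spent 24 h in DMEM with 0.1% serum that had been deprived of thyroid hormone. In the T3 group T3 was then added to a final 10 nM and the cells were harvested 24 h later, while the controls carry the treatment label "not T3". The other 16 libraries come from the same kind of culture at 6 h, with T3, with CHX and T3, with CHX alone, or with neither. CHX, read here as the protein synthesis inhibitor cycloheximide, is used below only for the estimate of the spread. The submitters state an enrichment of above 95% astrocytes. No label says that replicates were separate cultures or litters, so each p-value reflects only how these libraries varied, perhaps for technical reasons.

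T3 acts through nuclear receptors, encoded by Thra and Thrb, which sit on DNA near their target genes and exchange corepressors for coactivators when the hormone binds. In the brain, astrocytes take up the prohormone thyroxine, convert it to T3 with the deiodinase encoded by Dio2 and pass T3 on to neurons. T3 also enters astrocytes themselves, where Hr and Klf9 are among its best known targets, and the deiodinase encoded by Dio3 inactivates it.

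The 24 h libraries held 15315421 to 22997873 gene counts. Levels are given as CPM, the counts of a gene per 1000000 counts of its library after TMM scaling. CPM can be compared between libraries but not between genes of different length. Values of single libraries are given in replicate order, and "±" after a log2 fold change (T3 over control) is its standard error. Replicate numbers need not pair libraries, since T3 replicates 2 and 3 carry the letters C and D in the labels. Control replicates 2 and 3 carry B and C. Astrocyte genes were abundant in both groups: Gfap, the astrocyte intermediate filament gene, averaged 4559 ± 587 CPM with T3 (SD, n = 3) and 4727 ± 647 CPM in controls (SD, n = 4) and the glutamate transporter gene Slc1a3 1507 ± 102 CPM with T3 (SD, n = 3) and 1696 ± 54.1 CPM in controls (SD, n = 4). None of the 96 markers looked at was at 0 in all 7 libraries, but Mog, Mag, Slc17a7, Slc17a6, Pecam1, Cldn5 and Slc22a6, which are among the defining markers of myelin, excitatory neurons, vessels and meninges, were too low to be tested. Most markers of other cells were high enough, 11 of 14 of the oligodendrocyte lineage, 12 of 15 of neurons, 9 of 16 of endothelium and pericytes, 11 of 13 of meninges and all 16 of microglia. Summed over each list, those of the oligodendrocyte lineage ran from 874.7 to 952 CPM with T3, against 828.9 to 1178 CPM in controls. Those of neurons ran from 470.6 to 597.2 CPM with T3, against 556.3 to 621.4 CPM in controls, and those of endothelium and pericytes from 265.1 to 318.9 CPM with T3, against 307.3 to 331.4 CPM in controls. The ranges overlapped in all 3 lists, but a sum mostly follows its most abundant genes. The median log2 fold changes were −0.295 for the oligodendrocyte lineage, −0.219 for neurons, −0.491 for endothelium and pericytes and −0.287 for microglia. Without control replicates 2 and 4 they were 0.13, 0.031, −0.322 and 0.136. Over all genes the median was 0.004. The part of these cells in the results was not tested. The endothelial gene Emcn and Slc22a6 were at 0 in all 3 T3 libraries, where 3 counts would have stood for up to 0.189 CPM.

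T3 replicate 1 stands apart from the other 24 h libraries. Against the mean of the controls, its genes with under 1 kb of exon sequence lay at a median of 0.407 log2 CPM and those with over 8 kb at −0.305. That is a slope of −0.621 log2 CPM for each 10-fold of length, where the other 6 libraries had slopes between −0.081 and 0.081. Alignments that were not unique made up 42.3% of all its counts, against 37.3 to 39.1% in the other 24 h libraries. The number of calls and many of the results below are therefore given with and without it. T3 replicate 3 alone was run on lane 7 and the other 24 h libraries on lane 6. Leaving T3 replicate 3 out gives the value within a lane, but also leaves T3 replicate 1 with more weight.

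**Figure D1:**
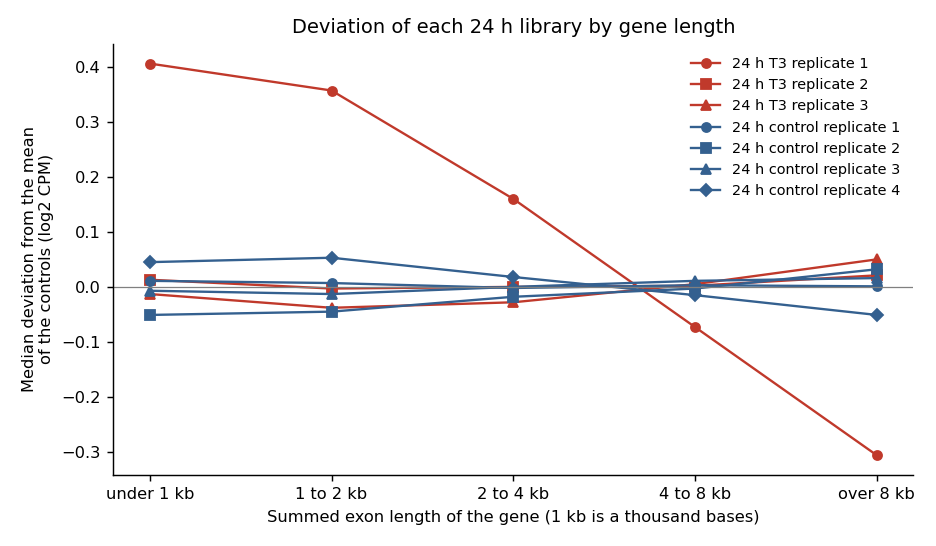
Median deviation of each 24 h library from the mean of the 4 controls (vertical axis, log2 CPM) for genes in 5 classes of summed exon length (horizontal axis). T3 replicate 1 runs from 0.407 in the shortest class to −0.305 in the longest, while the other T3 and control libraries stay between −0.05 and 0.054.

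After 24 h of T3, 1140 of 16087 genes tested were called at an adjusted p under 0.05 (7.09%, edgeR quasi-likelihood F test), with 709 higher (4.41%) and 431 lower (2.68%). Among them 99 were at least 2-fold higher (0.615%) and 22 at least 2-fold lower (0.137%). The T3 and control groups did not overlap in 2437 genes, of which 1308 lay above every control (8.13%) and 1129 below (7.02%). Protein-coding genes took 669 of the higher and 422 of the lower calls, and processed pseudogenes 21 and 3. These calls use a spread estimated over all 23 libraries, and a fit of only the 7 libraries of 24 h gave 401 calls.

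Without T3 replicate 1, 963 genes were called (5.91%), 611 higher (3.75%) and 352 lower (2.16%). Of the higher calls 488 were shared, 221 were lost and 123 were gained, and of the lower calls 245 were shared, 186 were lost and 107 were gained. Length went with these changes. The lost higher calls had a median exon length of 3132 nt and the gained ones of 8594 nt, while the lost lower calls had 6046 nt and the gained ones 2927 nt, against 4132 nt for all genes tested. Under 1 kb, 30 genes were called higher and 1 lower with all libraries, and 13 and 1 without T3 replicate 1. Over 8 kb the counts were 80 and 96 with it and 145 and 41 without it. What made this library differ was not tested. Without T3 replicate 3, which leaves the libraries of lane 6, 1486 genes were called, 983 higher and 503 lower, and 634 of the higher and 330 of the lower calls were shared with the fit of all libraries. In that setting T3 replicate 1 has more weight, so lane is not the only thing that changes.

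**Figure D2:**
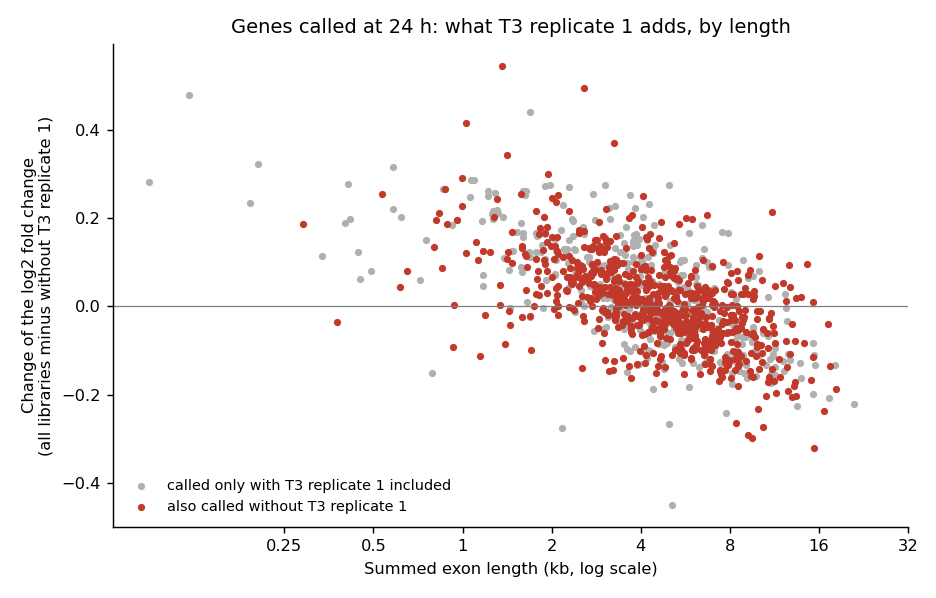
Each point is a gene called at 24 h. The vertical axis is its log2 fold change with all 24 h libraries minus that without T3 replicate 1, and the horizontal axis its summed exon length (kb, log scale). Points of short genes lie mostly above 0 and those of long genes mostly below, and the grey points are the 221 higher and 186 lower calls that were lost without this library, apart from genes with no length.

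Hr, which encodes the Hairless corepressor (ENSMUSG00000022096, GRCm38 chromosome 14, 70552212 to 70573548, plus strand), stood at 219, 247 and 232 CPM with T3, against 18.8, 18.1, 16.8 and 16.7 CPM in controls. Klf9, a zinc finger transcription factor gene (ENSMUSG00000033863, GRCm38 chromosome 19, 23141226 to 23168134, plus strand), stood at 45.9, 61.8 and 65.0 CPM with T3, against 20.2, 21.0, 20.2 and 20.3 CPM in controls. The T3 libraries lay above every control in both genes, and T3 replicate 1 was the lowest of the 3. Hr rose by 3.73 ± 0.08 log2 (adjusted p = 4.1e-21) and Klf9 by 1.50 ± 0.09 log2 (adjusted p = 2.4e-11). Dio3 (ENSMUSG00000075707, GRCm38 chromosome 12, 110279068 to 110281097, plus strand) stood at 10.3, 10.2 and 10.6 CPM with T3, against 0.126, 0.270, 0.319 and 0.457 CPM in controls, and rose by 5.09 ± 0.31 log2 (adjusted p = 2.4e-11). Of 30 listed thyroid hormone-responsive genes that were tested, 14 rose and none fell (46.7% called, median 0.45 log2). Over all genes 7.09% were called and the median was 0.004. Without T3 replicate 1 the counts were 15 and 1. They include genes chosen with these data in view, so the count is a description.

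Besides Hr, Klf9 and Dio3, the responsive genes with the firmest calls were Stat5a, a signalling factor gene (1.63 ± 0.10), Itga7, an integrin gene (0.67 ± 0.06), and Gbp3, a guanylate-binding protein gene (1.11 ± 0.11). The thyroid hormone receptor gene Thrb stood at 18.5, 26.5 and 26.6 CPM with T3, against 16.2, 15.8, 20.7 and 17.9 CPM in controls. Its groups overlapped, and the fitted change was 0.44 ± 0.13 log2 (adjusted p = 0.039). The adjusted p for Thrb was 0.136 without T3 replicate 2, 0.123 without T3 replicate 3, 0.101 without control replicate 1, 0.153 without control replicate 2 and 0.071 without control replicate 4, so the call rests on each of these libraries. Without T3 replicate 1, the lowest of the T3 libraries for Thrb, the change was 0.59 log2 (adjusted p = 0.0029). The other receptor gene, Thra, had −0.12 ± 0.05 log2 (adjusted p = 0.168), and the activating deiodinase gene Dio2 had −0.12 ± 0.10 log2 (adjusted p = 0.53), neither called. Exons of Nr1d1 overlap Thra on the other strand. The library kit marks no strand, so reads of such pairs cannot be told apart. The same overlap with a gene of the opposite strand holds below for Acot11, Acsl6, Amigo2, Atp1b1, Col4a3, Cox5a, Galnt14, Hes5, Hspb6, Idua, Itga7, Kcnk1, Loxl2, Nid1, Nrarp, Pcdh8, Pfkp, Rasl12, Rgs6, Sdc3, Stat5a, Syt12, Tpbgl, Tubb4b, Vcam1, Wdr66 and Dio2. Of 22 handling genes 3 rose and 1 fell. They were Dio3, Thrb, the organic anion transporter gene Slco1a4, which rose by 0.85 ± 0.08 log2 (adjusted p = 7.6e-08), and the amino acid and T3 transporter gene Slc7a5, which fell by 0.35 ± 0.07 log2.

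**Figure D3:**
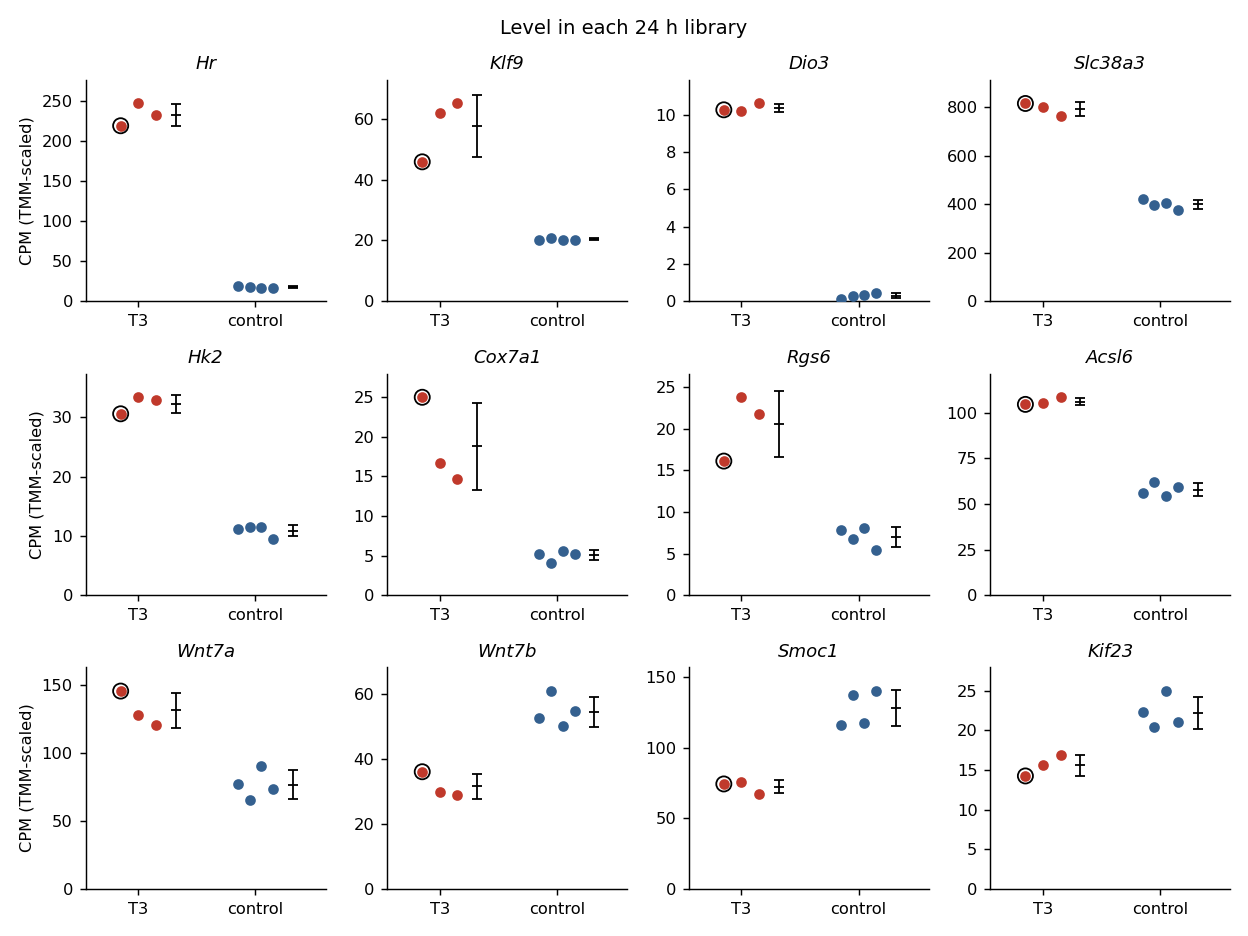
CPM in each 24 h library for 12 genes, with T3 on the left and controls on the right. Points are libraries, bars the mean ± SD (n = 3 and n = 4), and the ringed point is T3 replicate 1. In every panel the T3 points lie all above or all below the control points.

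Among called protein-coding genes that averaged at least 1 CPM, had groups that do not overlap and kept the call without T3 replicate 1, the 15 largest rises ran from 1.73 ± 0.37 log2 for A830018L16Rik to 5.09 ± 0.31 for Dio3. Pcolce2, which encodes an enhancer of procollagen processing (ENSMUSG00000015354, GRCm38 chromosome 9, 95637601 to 95698096, plus strand), stood at 58.5, 50.1 and 50.7 CPM with T3, against 15.8, 12.3, 11.4 and 11.1 CPM in controls. Ptger3, a prostaglandin E2 receptor gene, stood at 15.9, 16.3 and 18.0 CPM with T3, against 3.96, 3.24, 4.36 and 3.31 CPM in controls, and Cox7a1, the muscle form of a cytochrome c oxidase subunit, at 25.0, 16.7 and 14.7 CPM with T3, against 5.16, 4.11, 5.64 and 5.25 CPM in controls. By the rule, no control reached any T3 library in these genes. Pcolce2 rose by 2.07 ± 0.13 log2 (adjusted p = 2.7e-11), Ptger3 by 2.17 ± 0.19 log2 (adjusted p = 1.1e-08) and Cox7a1 by 1.89 ± 0.18 log2 (adjusted p = 6.8e-08). In Cox7a1 T3 replicate 1 was the highest, and without it the rise was 1.64 ± 0.17.

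The other genes of this group were Hr, Aldh1a1, Aldh1a7, Chst8, Galnt14, Rpe65, Prlr, Adamts17, Syt12, Ky and A830018L16Rik. They include retinoid enzymes (Aldh1a1 and Rpe65), another aldehyde dehydrogenase gene (Aldh1a7), Golgi enzymes (Chst8 and Galnt14), a metalloprotease gene (Adamts17) and the prolactin receptor gene (Prlr). Each was called under all alternatives tried, of which the one without T3 replicate 1 was part of the rule. The 15 largest falls by the same rule were smaller, from 0.91 ± 0.22 log2 in Tpbgl to 1.32 ± 0.34 log2 in Frzb. Larger called falls, such as that of Dcn, did not meet this rule. Frzb, a secreted Wnt inhibitor gene, stood at 0.945, 0.462 and 0.463 CPM with T3, against 1.26, 1.68, 1.22 and 1.88 CPM in controls, and its call was lost without T3 replicate 2 (adjusted p = 0.0694) and without T3 replicate 3 (0.067). Firmer falls were those of the urea transporter gene Slc14a2 (−0.95 ± 0.11), the muscarinic receptor gene Chrm4 (−1.25 ± 0.18), the Wnt receptor gene Fzd9 (−1.11 ± 0.16), Mpped1 (−1.10 ± 0.16), Rasl12 (−1.01 ± 0.21) and Gm45837 (−1.11 ± 0.13).

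Slc38a3, the sodium-coupled glutamine transporter gene of astrocytes (ENSMUSG00000010064, GRCm38 chromosome 9, 107650634 to 107669530, minus strand), stood at 814, 798 and 761 CPM with T3, against 421, 397, 405 and 376 CPM in controls. The lowest T3 library lay far above the highest control, and the gene rose by 0.98 ± 0.05 log2 (adjusted p = 7.2e-13). Of 26 glutamate and GABA genes 5 rose and 4 fell (34.6%, median 0.011 log2), and without T3 replicate 1 there were 7 and 2. Gria1, an AMPA receptor subunit gene, rose by 0.90 ± 0.11 log2 (adjusted p = 2.0e-06) and the aminotransferase gene Got1 by 0.41 ± 0.07 log2 (adjusted p = 2.6e-04). Without control replicate 2 there were 2 lower genes, and without control replicate 4 there was 1.

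Atp1b1 and Atp1b2, which encode beta subunits of the sodium pump, rose. Atp1b1 stood at 597, 600.3 and 627 CPM with T3, against 440.5, 419, 444 and 415 CPM in controls, and Atp1b2, the glial form, at 981, 1053 and 1043 CPM with T3, against 571, 616, 527 and 565 CPM in controls. In both genes all T3 libraries exceeded all controls. The rises were 0.50 ± 0.05 log2 (adjusted p = 7.6e-08) for Atp1b1 and 0.85 ± 0.07 log2 (adjusted p = 6.3e-09) for Atp1b2. Of 42 ion pump and exchanger genes 9 rose and none fell (21.4%, median 0.024 log2), with the same 9 and 0 in number without T3 replicate 1. Of 61 potassium channel genes 7 rose and 3 fell (16.4%, median −0.081), also without that library. Kcns1, a modulatory subunit gene, rose by 0.91 ± 0.10 log2 (adjusted p = 3.1e-07), the channel gene Kcnc1 by 1.02 ± 0.12 log2 (adjusted p = 2.7e-06), and the leak channel gene Kcnk1 by 0.56 ± 0.09 log2 (adjusted p = 1.1e-04). The inward rectifier gene Kcnj10, which buffers potassium in astrocytes, rose by 0.49 ± 0.09 log2 (adjusted p = 4.4e-04).

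Among 147 G protein-coupled receptor genes 13 rose and 8 fell (14.3%, median −0.073 log2), and 9 and 6 without T3 replicate 1. Beside Ptger3 the firmest were the orphan receptor gene Gpr146, at 119, 116 and 112 CPM with T3, against 81.8, 74.7, 80.7 and 70.4 CPM in controls, and the adrenergic receptor gene Adra2a, at 59.8, 56.6 and 57.0 CPM with T3, against 30.3, 28.1, 28.2 and 32.3 CPM in controls. Again no T3 library overlapped a control. Gpr146 rose by 0.59 ± 0.05 log2 (adjusted p = 3.2e-08) and Adra2a by 0.96 ± 0.11 log2 (adjusted p = 7.0e-07). Regulators of G protein signalling, which speed the shut-off of these receptors' G proteins, moved in opposite directions. Rgs6 stood at 16.1, 23.8 and 21.8 CPM with T3, against 7.80, 6.75, 8.03 and 5.42 CPM in controls, and rose by 1.56 ± 0.13 log2 (adjusted p = 1.1e-08), while its relative Rgs7 rose by 1.50 ± 0.19 log2 (adjusted p = 7.1e-06). Rgs17 fell by 0.80 ± 0.16 log2 (adjusted p = 0.00188).

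A known layout of thyroid hormone receptor sites is a pair of AGGTCA half-sites in the same orientation with 4 bases between them. RefSeq promoter windows of 300 bases (250 before to 50 after a start, build GRCm38.p6) were at hand for 11448 of the genes tested, by symbol, with 14692 windows. The half-site AGGTCA was found on either strand in 17.5% of 537 higher genes and 14.1% of 305 lower genes, against 14.7% of all 11448. The exact pair of AGGTCA half-sites was in none of them. With 1 base left free in each half-site, a pair of AGGNCA with 4 bases between was found in 7 of the higher genes (1.3%), in none of the lower ones, and in 27 of all genes (0.236%). GGNCA followed after 4 bases by AGGNCA, which every such match also meets, was in 13 higher genes (2.42%), no lower gene and 0.577% of all genes, and a pair of GGTCA with 5 bases between was in no higher or lower gene and 0.0524% of all genes. These 5 spellings were tried with the calls in view, so the shares are a description, and a match shows letters, not binding.

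The matches in Acsl6, Gpr146 and Idua, a lysosomal enzyme gene, are shown because these genes also stand in the gene lists. Each line is read in the direction of the pair, 5′ to 3′, with the half-sites in capitals and 12 flanking bases on each side:
Acsl6, chr11:54303623-54303662, minus strand: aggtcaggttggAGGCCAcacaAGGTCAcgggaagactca
Gpr146, chr5:139377569-139377608, plus strand: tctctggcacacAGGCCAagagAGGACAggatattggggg
Idua, chr5:108660223-108660262, plus strand: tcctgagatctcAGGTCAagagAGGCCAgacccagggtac
The pairs of Acsl6 and Idua each hold 1 half-site spelled AGGTCA, and the Acsl6 line has another AGGTCA in its lower-case flank, outside the pair. Acsl6 and Gpr146 were called under every alternative, while Idua, at 0.41 ± 0.09 log2 (adjusted p = 0.00546), was not called without T3 replicate 1 (0.26 ± 0.08, adjusted p = 0.0582). The other higher genes with a match were Arvcf, Slc35g1 and Tmco4, named for it after their values were seen, and Esrra. Esrra, whose exons overlap Trmt112, also stands in the gene lists, but its match is not printed here. Esrra, at 0.33 ± 0.09 log2 (adjusted p = 0.0304), was not called without T3 replicate 1 (0.21 ± 0.09, adjusted p = 0.222), nor without any 1 of the controls (adjusted p = 0.0551 to 0.0816). Hr and Slc38a3 had no window to search, and no pair was found in the windows of Klf9, Dio3, Aldh1a1 or Hk2.

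Acsl6, which encodes an acyl-CoA synthetase of brain, stood at 105, 105 and 109 CPM with T3, against 55.8, 62.4, 54.2 and 59.2 CPM in controls. Elovl5, a fatty acid elongase gene, stood at 238, 254 and 239.8 CPM with T3, against 153, 161, 159 and 154 CPM in controls. The groups were apart in both, and Acsl6 rose by 0.88 ± 0.07 log2 (adjusted p = 2.3e-09) and Elovl5 by 0.64 ± 0.05 log2 (adjusted p = 1.6e-09). Of 36 genes of fatty acid synthesis and desaturation 5 rose and 1 fell (16.7%, median 0.033 log2), with 4 falls without T3 replicate 1 and 3 without control replicate 3. Lpin3, a phosphatidate phosphatase gene, also rose, by 1.37 ± 0.13 log2 (adjusted p = 4.4e-08). The firmest rise among 39 genes of fatty acid oxidation was that of the thioesterase gene Acot11, by 0.95 ± 0.13 log2 (adjusted p = 1.3e-05). Of these 39, 8 rose and 2 fell (25.6%). The higher count was 4 without T3 replicate 1 and 5 without control replicate 2, and the lower count was 1 or 0 without every library but control replicate 3. Srd5a1, which encodes a steroid 5-alpha-reductase, rose by 1.14 ± 0.12 log2 (adjusted p = 2.2e-07).

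Hk2, a hexokinase gene at the entry to glycolysis (ENSMUSG00000000628, GRCm38 chromosome 6, 82725025 to 82774454, minus strand), stood at 30.6, 33.4 and 32.9 CPM with T3, against 11.2, 11.6, 11.4 and 9.42 CPM in controls. Slc16a1, a lactate transporter gene, stood at 417, 422 and 429.6 CPM with T3, against 327, 316, 344 and 320.4 CPM in controls. T3 libraries lay above every control in both, with rises of 1.57 ± 0.10 log2 (adjusted p = 8.0e-11) for Hk2 and 0.37 ± 0.04 log2 (adjusted p = 1.2e-06) for Slc16a1. Of 41 genes of glycolysis, glycogen and lactate 12 rose and 2 fell (34.1%, median 0.145 log2), and 9 and 1 without T3 replicate 1, with 0 to 3 falls when other single libraries were left out. The phosphofructokinase gene Pfkp rose by 0.48 ± 0.05 log2 (adjusted p = 3.7e-07).

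Mitochondrial genes rose in larger number with T3 replicate 1 than without it. Of 31 genes of the tricarboxylic acid cycle 9 rose and none fell (29%), and 29 of 31 values were positive, with a median of 0.168 log2. Without that library 4 rose and the median was 0.113, and 4 rose without control replicate 2 and 5 without control replicate 4. Idh3a, an isocitrate dehydrogenase subunit gene, rose by 0.41 ± 0.06 log2 (adjusted p = 7.6e-05) and by 0.38 ± 0.07 without it, and the succinate-CoA ligase gene Suclg1 by 0.46 ± 0.08 log2 (adjusted p = 3.5e-04) and by 0.30 ± 0.06 without it. Of 82 nuclear genes of the respiratory chain 17 rose and none fell (20.7%, median 0.341), and 3 rose without it (median 0.115). The count was also 3 without control replicate 2 and 7 without control replicate 4, but 41 without T3 replicate 2 and 55 without T3 replicate 3, which leave T3 replicate 1 with more weight. It was 1 without control replicates 2 and 4 together (median 0.307) and 27 with DESeq2. With the length and GC trend of each library removed and T3 replicate 1 kept, 37 rose and none fell (median 0.239).

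The respiratory chain genes are short, with a median exon length of 1578 nt. Uqcr10, a subunit gene of complex III, stood at 161, 92.6 and 91.6 CPM with T3, against 78.7, 74.0, 76.3 and 76.8 CPM in controls. Here T3 replicate 1 lay far above T3 replicates 2 and 3, though these too exceeded the controls. Its change was 0.58 ± 0.15 log2 (adjusted p = 0.0132), and 0.27 ± 0.11 without T3 replicate 1 (adjusted p = 0.208). Cox5a, a subunit gene of complex IV, kept its call at 0.30 ± 0.09 without that library, against 0.55 ± 0.12 with it. Cytosolic ribosomal proteins, also short (median 1806 nt), had a median of 0.137 log2 with it and −0.112 without it, with 1 of 76 genes called and then none. For 76 mitochondrial ribosomal protein genes the medians were 0.202 and 0.014, and for 42 proteasome genes 0.13 and −0.004, with no gene called either way. Without T3 replicate 3, which leaves T3 replicate 1 with more weight, 12 mitochondrial ribosomal protein genes and 5 proteasome genes were called higher.

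**Figure D4:**
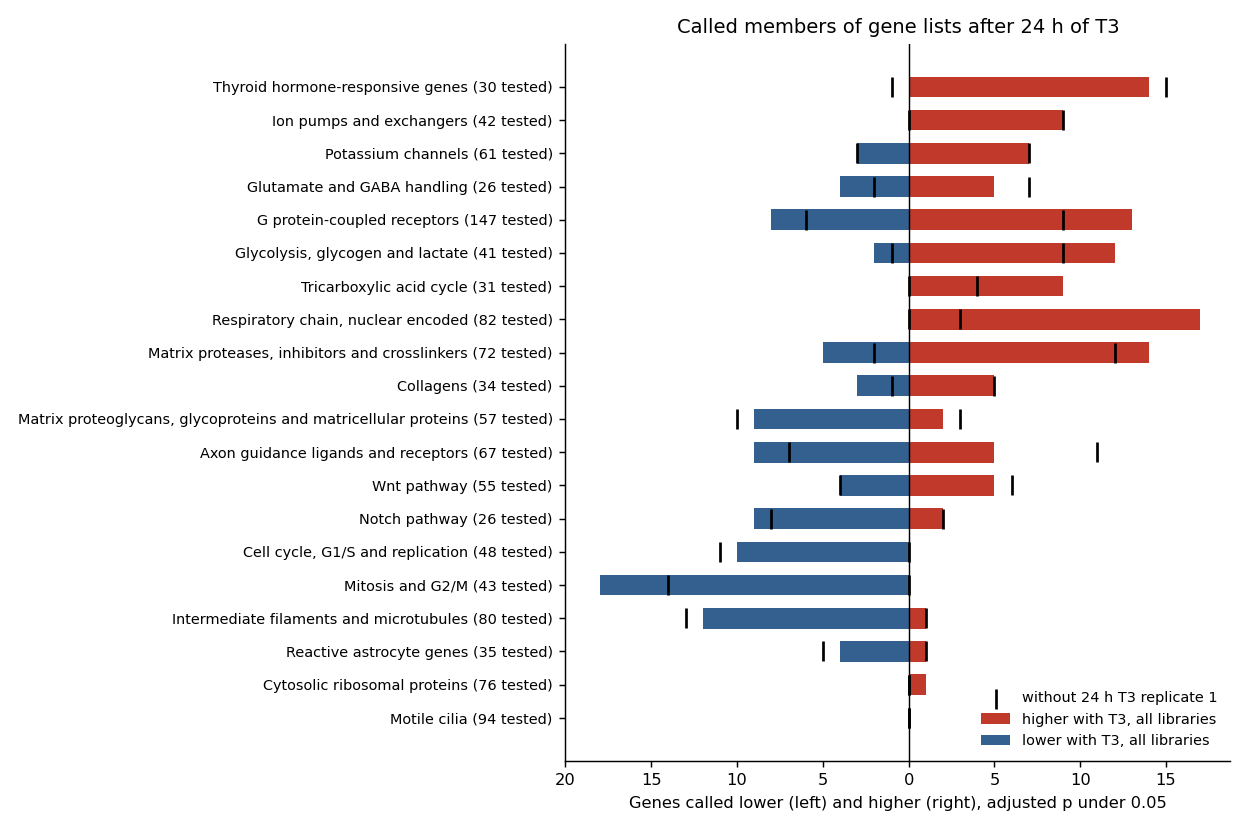
Number of genes called higher (right of 0) and lower (left of 0) at 24 h in 20 gene lists, at an adjusted p under 0.05. Bars are counts with all libraries and black ticks counts without 24 h T3 replicate 1. The respiratory chain drops from 17 to 3 higher genes without it, while ion pumps stay at 9 and mitosis genes are at 18 lower genes with it and 14 without it.

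Several matrix enzyme genes rose while several matrix protein genes fell. Of 72 genes of matrix proteases, inhibitors and crosslinkers 14 rose and 5 fell (26.4%, median 0.005 log2), and 12 and 2 without T3 replicate 1. Without control replicate 2 there were 3 lower genes. Adamts17 stood at 40.8, 60.0 and 50.9 CPM with T3, against 12.3, 8.59, 11.5 and 6.74 CPM in controls, and rose by 2.37 ± 0.17 log2 (adjusted p = 2.1e-10), with the lowest value in T3 replicate 1. The aggrecanase gene Adamts5 rose by 1.70 ± 0.15 log2 (adjusted p = 1.2e-08) and the lysyl oxidase gene Loxl2 by 0.98 ± 0.09 log2 (adjusted p = 1.4e-08). Of 34 collagen genes 5 rose and 3 fell (23.5%), with 1 lower gene without that library or without control replicate 4. The type IV chains of Col4a3 and its neighbour Col4a4 rose by 1.36 ± 0.18 log2 (adjusted p = 1.2e-05) and 0.91 ± 0.15 log2 (adjusted p = 1.5e-04), and Col8a1 rose by 1.14 ± 0.13 log2 (adjusted p = 1.3e-06).

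Smoc1, which encodes a calcium-binding matricellular protein, stood at 74.3, 75.8 and 67.2 CPM with T3, against 116, 138, 118 and 140.1 CPM in controls. All T3 libraries were below all controls. It fell by 0.82 ± 0.07 log2 (adjusted p = 2.8e-08). Of 57 matrix proteoglycan, glycoprotein and matricellular genes 2 rose and 9 fell (19.3%, median −0.096), and 3 and 10 without T3 replicate 1. Leaving out other single libraries gave 1 to 4 higher genes. The syndecan gene Sdc3 fell by 0.38 ± 0.07 log2. In a separate list of 44 laminin, basement membrane and integrin genes 2 rose and 2 fell (9.09%, against 7.09% over all genes). The laminin gene Lama4 fell by 0.81 ± 0.14 log2 and the nidogen gene Nid1 by 0.76 ± 0.12. Meningeal fibroblasts make such proteins too. The summed level of 13 meningeal markers ran from 329.3 to 367.4 CPM with T3, against 406.1 to 592.6 CPM in controls. Col1a1 and Col1a2, matrix genes themselves, were among the most abundant of these markers. Col1a1 averaged 75.0 ± 10.1 CPM with T3 (SD, n = 3) and 128 ± 35.7 CPM in controls (SD, n = 4). For Col1a2 the means were 160 ± 10.3 CPM with T3 (SD, n = 3) and 205 ± 27.9 CPM in controls (SD, n = 4). The median of the 11 markers tested was −0.419 log2, and −0.039 without control replicates 2 and 4. The part of such cells in these falls was not tested.

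With control replicates 2 and 4 left out, which had the highest summed levels of microglia, meningeal and oligodendrocyte lineage markers, 3 matrix protein genes fell and not 9. Dcn, the decorin gene and a meningeal marker, stood at 1.39, 1.08 and 0.884 CPM with T3, against 1.07, 11.5, 1.38 and 6.91 CPM in controls. Its control values spread widely, and the adjusted p was 0.0453 with all libraries and 0.927 without control replicates 2 and 4. Leaving out any single T3 library, or control replicate 2 or 4, also lost the call for Dcn, at adjusted p of 0.0716 to 0.236.

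Guidance molecules for axons fell more than they rose, at 9 and 5 of 67 (20.9%, median −0.094 log2), but without T3 replicate 1 the counts were 7 lower and 11 higher. The higher count was 3 without T3 replicate 2 or control replicates 1, 2 or 4, each left out alone. Draxin, which encodes a secreted repellent, stood at 128, 144 and 134 CPM with T3, against 239.5, 255, 267 and 248 CPM in controls, with all T3 values below all controls. It fell by 0.90 ± 0.11 log2 (adjusted p = 5.2e-06). The repellent gene Slit1 fell by 0.73 ± 0.13 log2 and the plexin gene Plxnc1 by 0.56 ± 0.10. Among adhesion genes Pcdh8, a protocadherin gene, rose by 1.02 ± 0.09 log2 (adjusted p = 3.2e-08) and the claudin gene Cldn12 by 0.74 ± 0.07 log2 (adjusted p = 1.9e-08). Nptx1, a neuronal pentraxin gene, fell by 1.25 ± 0.19 log2.

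In the Wnt pathway, 2 closely related ligand genes went apart. Wnt7a stood at 146, 128 and 120.4 CPM with T3, against 77.6, 65.8, 90.7 and 73.2 CPM in controls, and Wnt7b at 36.1, 30.0 and 29.0 CPM with T3, against 52.5, 61.0, 50.3 and 54.7 CPM in controls. T3 lay above every control for Wnt7a and below every control for Wnt7b. The changes were 0.77 ± 0.09 log2 (adjusted p = 1.2e-06) for Wnt7a and −0.79 ± 0.10 log2 (adjusted p = 2.7e-06) for Wnt7b. An antisense gene, AU022754, overlaps exons of Wnt7b, and its reads cannot be told apart from those of Wnt7b. Of 55 Wnt pathway genes 5 rose and 4 fell (16.4%, median −0.051), and 6 and 4 without T3 replicate 1. Dkk3, a secreted modulator gene, fell by 0.51 ± 0.07 log2, and Sostdc1, which encodes a secreted inhibitor of BMP and Wnt signals, rose by 0.64 ± 0.07 log2 (adjusted p = 1.5e-06).

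Of 26 Notch pathway genes 2 rose and 9 fell (42.3%, median −0.152 log2), and 2 and 8 without T3 replicate 1. There were 4 lower genes without T3 replicate 2, and also 4 without control replicates 2 and 4 together. Nrarp and Hey1, both targets of Notch, rose by 0.63 ± 0.06 and 0.39 ± 0.06, and the fringe gene Mfng fell by 0.65 ± 0.12. The Notch effector gene Hes5 stood at 2.90, 0.872 and 1.35 CPM with T3, against 3.58, 3.13, 3.72 and 3.25 CPM in controls, and had −1.05 ± 0.25 log2 (adjusted p = 0.00775). Without T3 replicate 1 its value was −1.60 ± 0.22, and without T3 replicate 2 it was no longer called (adjusted p = 0.062). Growth factor genes moved in both directions, 8 higher and 7 lower of 85 (17.6%), and 7 and 6 without T3 replicate 1. Pdgfb, a platelet-derived growth factor gene, rose by 0.63 ± 0.09 log2 (adjusted p = 3.7e-05), and Kitl, the ligand gene of the receptor Kit, fell by 0.73 ± 0.11 log2 (adjusted p = 9.9e-05).

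Cell cycle genes fell or were not called. Of 43 genes of mitosis and G2/M 18 fell and none rose (41.9%), 42 of the 43 values were negative and the median was −0.286 log2. Without T3 replicate 1, 14 fell (median −0.291), and without control replicates 2 and 4, 17 fell (median −0.358). Fewer fell without T3 replicate 2 (11) or control replicate 3 (6), and 4 fell in the fit of only the 7 libraries of 24 h. Kif23, a kinesin gene of the dividing cell, stood at 14.2, 15.6 and 16.8 CPM with T3, against 22.3, 20.4, 24.9 and 21.1 CPM in controls, with all T3 libraries below all controls, and fell by 0.51 ± 0.10 log2 (adjusted p = 0.00231). Of 48 genes of G1/S and replication 10 fell and none rose (20.8%, median −0.157), and 11 fell without T3 replicate 1. Uhrf1, which maintains DNA methylation in S phase, fell by 0.44 ± 0.07 log2 and the helicase gene Mcm4 by 0.28 ± 0.06. In a bulk library fewer cells in division and less RNA per dividing cell cannot be told apart. The same holds for every list here.

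Of 80 intermediate filament and microtubule genes 12 fell and 1 rose (16.2%), with 2 rises without T3 replicate 2 or control replicate 4, each left out alone. The tubulin gene Tubb4b rose by 0.65 ± 0.09 log2 (adjusted p = 1.5e-05), while the lamin gene Lmnb1 fell by 0.30 ± 0.06 log2 and the mitotic kinesin gene Kif18b by 0.45 ± 0.09. Immediate early genes, which respond first to stimuli, had 6 falls and no rise in 36 (16.7%, median −0.119). There were 5 falls without T3 replicate 1, and 3 without T3 replicate 3 or control replicate 1, each left out alone. Btg2, an antiproliferative gene of this kind, fell by 0.56 ± 0.08 log2 and the nuclear receptor gene Nr4a3 by 0.66 ± 0.14.

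Among 35 reactive astrocyte genes 4 fell and 1 rose (14.3%, median −0.213 log2), and without control replicates 2 and 4 none fell and 1 rose (median −0.023). The lower count was 5 without T3 replicate 1, 1 without T3 replicate 2, 8 without control replicate 3 and 2 without control replicate 4. The complement inhibitor gene Serping1 stood at 13.1, 11.0 and 12.1 CPM with T3, against 14.0, 27.1, 14.0 and 27.4 CPM in controls. It was highest in control replicates 2 and 4. Its value was −0.78 ± 0.21 log2 (adjusted p = 0.0255) with all libraries and −0.23 without those controls (adjusted p = 0.614). The call for Serping1 was also lost without T3 replicate 2 (0.0848), T3 replicate 3 (0.0527), control replicate 2 (0.0994) or control replicate 4 (0.107). Summed microglia markers ran from 180.6 to 201.2 CPM with T3, against 169.8 to 278.5 CPM in controls, and none of the 16 was called. The adhesion gene Vcam1, a target of NF-kappaB, fell by 0.45 ± 0.07 log2 (adjusted p = 6.3e-05), also without those controls. Amigo2, listed as a reactive gene, rose by 0.72 ± 0.12 log2 (adjusted p = 2.5e-04).

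Chaperone genes had 7 rises and no fall in 89 (7.87%, median 0.082 log2), close to the 7.09% over all genes. The rises numbered 4 without T3 replicate 1 or control replicates 2 or 4, and 3 without control replicate 1, each left out alone. The endoplasmic reticulum chaperone gene Hspa5 rose by 0.30 ± 0.05 log2 (adjusted p = 4.0e-04) and the small heat shock gene Hspb6 by 0.53 ± 0.07 log2 (adjusted p = 4.9e-06). The iron exporter gene Slc40a1 rose by 0.76 ± 0.13 log2 (adjusted p = 2.3e-04). No gene was called at 24 h among 94 motile cilia genes (median −0.048), 38 aminoacyl-tRNA synthetase genes (median 0.053) or 7 mitochondrially encoded genes (median 0.062). At an unadjusted p under 0.05 there were 4, 3 and 1 such genes, and DESeq2 called none of them. Leaving out any 1 library gave at most 1 call in each of these lists.

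T3 raised 709 genes at 24 h and 420 at 6 h (2.61%), and lowered 431 at 24 h and 186 at 6 h (1.16%). At both times it raised 214 genes, which is 30.2% of the genes higher at 24 h and 51% of the genes higher at 6 h. It lowered 63 genes at both, 14.6% of the lower genes at 24 h and 33.9% of those at 6 h. The 2 effects share no library, and the counts and values compared with 6 h here include T3 replicate 1. Of 495 genes called higher at 24 h but not at 6 h, the difference between the times was itself called for 70, and of 368 genes lower at 24 h alone for 31. In all, the difference was called for 135 of 16087 genes (0.839%), 87 with a higher value at 24 h (0.541%) and 48 with a lower one (0.298%). That count was 350 without T3 replicate 3, 247 without control replicate 3, 74 without control replicate 4 and 69 without control replicate 2.

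Rgs6 is among the genes that were raised later, with 1.56 ± 0.13 log2 at 24 h and 0.13 ± 0.14 at 6 h, a difference of 1.43 ± 0.19 (adjusted p = 2.6e-04). Cox7a1 had 1.89 ± 0.18 at 24 h and 0.36 ± 0.22 at 6 h (difference 1.53 ± 0.29, adjusted p = 0.00936), and Acot11 0.95 ± 0.13 and 0.11 ± 0.13 (difference 0.84 ± 0.18, adjusted p = 0.0217). Smoc1 had −0.82 ± 0.07 at 24 h and −0.07 ± 0.07 at 6 h, and Kitl −0.73 ± 0.11 and 0.07 ± 0.10. The ubiquitin ligase gene March4 was lower at 24 h (−0.81 ± 0.14) and higher at 6 h (0.53 ± 0.11, adjusted p = 0.00676). Hr, by contrast, had 3.73 ± 0.08 at 24 h and 4.25 ± 0.08 at 6 h, a difference of −0.53 ± 0.11 (adjusted p = 0.0158). For Klf9 the values were 1.50 ± 0.09 and 1.79 ± 0.09, and their difference was not called (adjusted p = 0.259). No motile cilia gene was called at 24 h, where the median was −0.048 log2. Without control replicates 2 and 4 that median was 0.131, again with none called. At 6 h 15 of the 94 genes were higher, against 2.61% over all genes, and the median was 0.52 log2. Wdr66, one of the 94, had −0.16 ± 0.17 at 24 h and 1.11 ± 0.18 at 6 h. At 6 h the medians were also positive for markers of neurons (0.39), the oligodendrocyte lineage (0.335) and microglia (0.196), with 1, 1 and 0 genes higher, against 0.003 over all genes, and their part in the cilia values was not tested. All 6 h T3 and control libraries were on lane 5, so time and lane cannot be told apart.

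**Figure D5:**
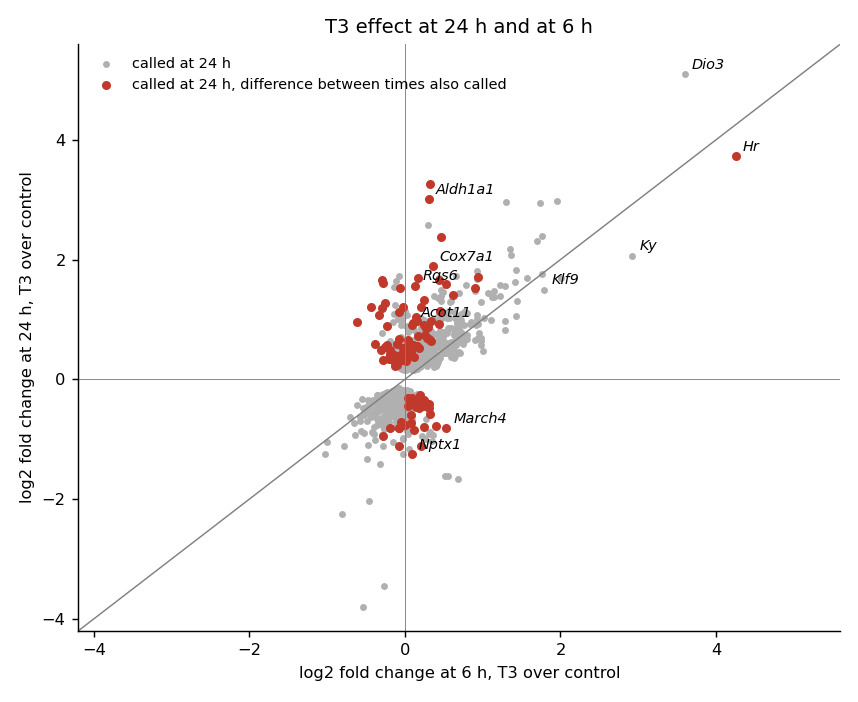
Log2 fold change of T3 over control at 24 h (vertical axis) and at 6 h (horizontal axis) for genes called at 24 h. Red points also passed the test of the difference between times, the diagonal marks equal effects, and Hr, at 3.73 and 4.25, lies below it while Aldh1a1, at 3.01 and 0.31, lies far above.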

How the data were processed

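The authors deposited raw read counts, 1 file for each of 23 libraries, over 38293 Ensembl genes. Total RNA went into libraries with a NEBNext Ultra kit, whose standard form marks no strand, and was read as single reads of 50 bases, per the labels' protocols. HTSeq, TopHat, Bowtie, edgeR, FastQC, bcl2fastq and the build GRCm38 are named in the submitters' processing notes. For the annotation release and counting mode, the sources used here give nothing. The 5 closing lines that name no gene, among them 3.75 to 5.58% without a feature in the 24 h libraries, were left out of library sizes. Multiply aligned reads are in those lines, so near-identical gene copies are counted low. Groups were taken from the sample titles.

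Symbols, coordinates and lengths come from a GRCm38 annotation that held 36429 of the identifiers. Counts were tested with edgeR 4.0.16 in R 4.3.3 (limma 3.58.1): filterByExpr with a minimum count of 10, TMM factors, 1 mean per group over all 23 libraries with 17 residual degrees of freedom, and a quasi-likelihood F test. Adjusted p-values are Benjamini-Hochberg over 16087 genes. The standard error of a log2 fold change was taken from its F value. CPM are counts over TMM-scaled library sizes. Tables were handled with Python 3.11.15 and pandas 2.3.3.

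Named genes are the 15 with the largest change per direction among protein-coding genes that were called, averaged 1 CPM or more, had groups that do not overlap and kept the call without T3 replicate 1. To these were added up to 3 called members with the smallest adjusted p from each of 69 gene lists, Hr, Klf9, Dio3, Dio2, Thra and Thrb, and the 5 genes per direction with the largest called difference between times. Markers are named beside them, and 1 gene that the rule chose is not reported here. The members, lists and rules were chosen with earlier results of these data known. Alternatives were RLE factors, DESeq2 1.42.0, no filter, other sets of libraries, each 24 h library left out, 2 replicate blocks, removal of the length and GC trend, and a stricter threshold.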

Additional observations from a re-analysis of the deposited data

Results flagged for a closer look

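Of the 102 genes named, 27 had an effect of T3 at 24 h that differed from the effect at 6 h in edgeR's test of the difference (adjusted p under 0.05 over all genes). Of all genes tested 0.839% had such a call. The 2 shares cannot be compared, since 6 of the 27 genes were named for a large called difference between times and the others for their calls at 24 h. All values here are log2 fold changes at 24 h minus those at 6 h. The 24 h libraries are on lanes 6 and 7 and the 6 h libraries on lane 5, so time and lane cannot be told apart.

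Among genes higher at 24 h, the difference was 2.95 for Aldh1a7, 2.70 for Aldh1a1, 1.90 for Adamts17, 1.53 for Cox7a1 and 1.43 for Rgs6. It was 0.84 for the thioesterase gene Acot11, 0.69 for Srd5a1, 0.66 for the AMPA receptor gene Gria1 and 0.64 for the lysyl oxidase gene Loxl2. Smaller differences were 0.58 for Acsl6 and also 0.58 for the transporter gene Slco1a4, and 0.35 for Itga7. The lowest were 0.31 for Elovl5, 0.29 for the chaperone gene Hspa5 and 0.26 for the lactate transporter gene Slc16a1.

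The difference was negative for 12 genes. It was −1.34 for March4, −1.33 for Nptx1, −1.27 for the cilia gene Wdr66, −1.18 for Serping1 and −1.03 for Gm45837. Matrix genes with a negative difference were Nid1 (−0.77), Smoc1 (−0.75) and Lama4 (−0.74). The remaining ones were Kitl (−0.80), Slc14a2 (−0.66), Hr (−0.53) and Vcam1 (−0.49). Hr was higher with T3 at both times.

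In 4 of the 102 genes 1 control library stood far from the other 3 by Dixon's test at its 95% critical value. Klf9 was at 20.97 CPM in control replicate 2, against 20.19 to 20.26 CPM in the others, and Tubb4b at 151.3 CPM in control replicate 4, against 132.1 to 133.4 CPM. Control replicate 1 was low for Mfng, at 11.38 CPM against 13.78 to 14.2 CPM, and for Plxnc1, at 42.83 CPM against 46.69 to 47.39 CPM. Chance alone flags about 1 in 20 groups, and 4 of 102 is no more than that.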

How the results depend on the processing

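The 1140 calls at 24 h (709 higher, 431 lower) came to 1115 with RLE factors, 1380 with DESeq2, 1089 with no filter and 829 without the CHX libraries. Only the 7 libraries of 24 h, with 5 residual degrees of freedom, gave 401 (287 higher, 114 lower), and 981 (606 and 375) when T3 replicate 1 was also left out, a setting added after the data were seen. Without control replicates 2 and 4 there were 642 (391 and 251), and at an adjusted p under 0.01 there were 618. Removing the length and GC trend gave 1652 calls, with 728 lower. Leaving out 1 library at a time gave 810 to 1486 calls, 487 to 983 of them higher and 323 to 503 lower. The 135 calls of a difference between times came to 358 with DESeq2, 62 without the CHX libraries and 69 to 350 with 1 library left out. The cause of these shifts was not tested, apart from the stricter threshold. Fewer libraries did not always give fewer calls, since 1486 were made without T3 replicate 3, which leaves T3 replicate 1 with more weight. With only the 7 libraries of 24 h, lists also had fewer calls. Lower genes numbered 4 for mitosis and G2/M, 2 for G1/S and 3 for Notch. Higher genes numbered 11 for thyroid hormone-responsive genes, 5 for ion pumps, 8 for glycolysis, and 1 each for the tricarboxylic acid cycle and the respiratory chain.

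The deviations of same-numbered T3 and control libraries had correlations of 0.05, 0.102 and −0.076. The letters in the labels are A, C and D for T3 replicates 1 to 3, and A to D for control replicates 1 to 4. Control replicate 2, with letter B, thus has no T3 library of its letter at 24 h. Pairs with the same letter had correlations of 0.05, 0.08 and −0.071. With groups of 3 and 4 libraries, and T3 replicate 1 far from the others, these values cannot show whether libraries were paired. A replicate block by number gave 778 calls and one by the letter in the labels 702 (456 higher, 246 lower), each with 8 residual degrees of freedom.

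Of 179 genes that the naming rule chose, 175 were called and 103 kept the call under every alternative. Values that changed sign were those of Wdr66 (−0.16 log2, not called), at −0.261 to 0.009 with 1 library left out, 0.152 without control replicates 2 and 4 and 0.018 with the replicate block by number, and of St18 (−0.18, not called), at −0.376 to 0.084, 0.356 and 0.088. Cldn11, at −1.67, had 0.225 without control replicates 2 and 4. The depth limits genes with few counts, and p-values measure only the spread between these libraries.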
